A study of Mus musculus with 12 samples.

Results

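Heat shock proteins and other chaperones were measured in livers of mice given bulaquine, an aminoquinoline antimalarial that the body converts to primaquine, against livers of mice given vehicle. Livers were taken 6 h, 12 h or 24 h after administration, and 4 spotted arrays per time point each carried cDNA of a bulaquine sample and of a vehicle sample in different dyes. Bulaquine was in Cy5 on the arrays labelled F1 and F2 and in Cy3 on those labelled R1 and R2. Sample titles name hepatotoxicity as the subject. The labels used here give no dose, route, strain, sex or age, and do not say whether a vehicle animal served more than 1 time point or whether 2 arrays of a time point share RNA. The p-values are therefore set against the spread from array to array, part of which may be technical.

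The members were spots with a single gene symbol that starts with Hsp, Dnaj, Cct, Bag, Pdia or Fkbp (Cct and Bag followed by a digit). Such a symbol was held by 128 spots of 66 genes, out of 23040 spots on the array. Of these, 87 spots of 48 genes had a background-corrected intensity over 0 in both dyes on all 12 arrays and were tested, among 11749 tested spots of 5691 genes. Another 41 spots failed that rule, 24 of them on 1 array only, and 18 genes were left without a tested spot. Those 18 were Bag2, Bag5, Dnajb2, Dnajb4, Dnajb9, Dnajc16, Dnajc21, Dnajc27, Dnajc6, Fkbp11, Fkbp15, Fkbp3, Fkbp5, Hspa13, Hspb11, Hspbap1, Hspbp1 and Hspg2, of which Hspg2 (the proteoglycan perlecan) is no chaperone and matched by its letters alone. No small heat shock protein was among the tested spots.

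Chaperones bind unfolded or partly folded proteins and let them reach or keep their shape. In the cytosol, nascent chains pass to Hsp70 proteins, which J proteins deliver clients to and BAG proteins release them from, and a subset moves on to Hsp90 or to the Cct chaperonin ring, which folds actin and tubulin. Hsp70 and Hsp90 relatives also work in the endoplasmic reticulum (ER), beside protein disulfide isomerases, and in mitochondria beside the Hspd1 chaperonin. Many of the cytosolic and mitochondrial chaperone genes are switched on by heat shock factor 1, which reads repeats of the heat shock element in their promoters, and the liver, which secretes much protein, keeps high levels of the ER set.

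Array quality and names bear on every value below. The median signal-to-noise score of an array lay between 0.76 and 1.42 for Cy3 and between 0.47 and 1.34 for Cy5. From 9.66% to 24.5% of its spots were at 0 in a channel, the most on array F2 of 12 h. The members' median signal-to-noise score was 2.98 in bulaquine samples and 2.83 in vehicle samples, and 11 of the 87 members had a median score under 1 in bulaquine samples. Gene names rest on an inferred order of the array's 48 blocks. Its direction was set so that the metallothioneins Mt1 and Mt2 fell at given spots. These had log2 ratios of 1.46 and 2.07 at 6 h (limma, adjusted p = 0.00117 and 7.27e-04). Since the order was set by these spots, their values cannot test the gene names. Another Mt2 spot, not named in that choice, was at 1.08 at 6 h (limma, adjusted p = 0.0154). The hepatocyte genes Alb, Trf, Ttr, Ass1 and Apoa1 had tested spots, while the bile duct and red cell marker lists had 0 tested spots.

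Over all members, bulaquine livers differed from vehicle livers at 1 spot at 6 h, the Hsp90aa1 spot 11546, which fell. At 6 h 1 of 87 members passed an adjusted p of 0.05 (limma, Benjamini-Hochberg over all tested spots), which is 1.15% of the members, where 0.102% of all tested spots passed. The same spot was the only member to pass a joint test over the 3 time points, where 0.826% of all tested spots passed. At 12 h 0 members passed, against 0.46% of all tested spots, and at 24 h 0 members passed, against 0.477%.

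Below that threshold the members were spread to both sides of 0. At an unadjusted p under 0.05 in limma, 10 members were lower and 4 higher at 6 h, which is 11.5% and 4.6% of the members, against 3.24% and 3.12% of all tested spots. At 12 h 2 members were lower and 5 higher, against 3.84% and 4.76% of all tested spots. At 24 h 6 were lower and 5 higher, against 7.13% and 5.93%. The members' share on the lower side at 6 h was above the background share, but 3 of those 10 lower spots were Hsp90aa1 probes and 3 were Hspa8 probes. Among the other 76 members 4 were lower and 4 higher at 6 h. The members were chosen with earlier results of these data known, so the share is a description and not a test.

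The median log2 ratio of the 87 members, bulaquine over vehicle, was -0.08 at 6 h, 0.06 at 12 h and 0.02 at 24 h. Over all 11749 tested spots it was -0.00, -0.01 and 0.01 at those times. The members' median at 6 h was -0.02 without the dimmest 30% of spots, and that at 24 h turned to -0.01 with normexp background and to -0.04, -0.04 and -0.02 when array F1, F2 or R2 of 24 h was left out. Without the Hsp90aa1 and Hspa8 spots the median of the other 76 members was -0.02 at 6 h, with 39 of them below 0. At 6 h, 20 members (23%) lay below 0 on all 4 arrays and 12 (13.8%) above, against 8.67% and 9.35% of all tested spots. At 12 h the counts were 1 below (1.15%) and 16 above (18.4%), where 9.13% and 9.6% of all tested spots did. At 24 h they were 10 below (11.5%) and 8 above (9.2%), where 12.1% and 10.5% of all tested spots did. These array values have each spot's own dye effect taken out, as do all array values below, which are given in the order F1, F2, R1 and R2.

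**Figure D1:**
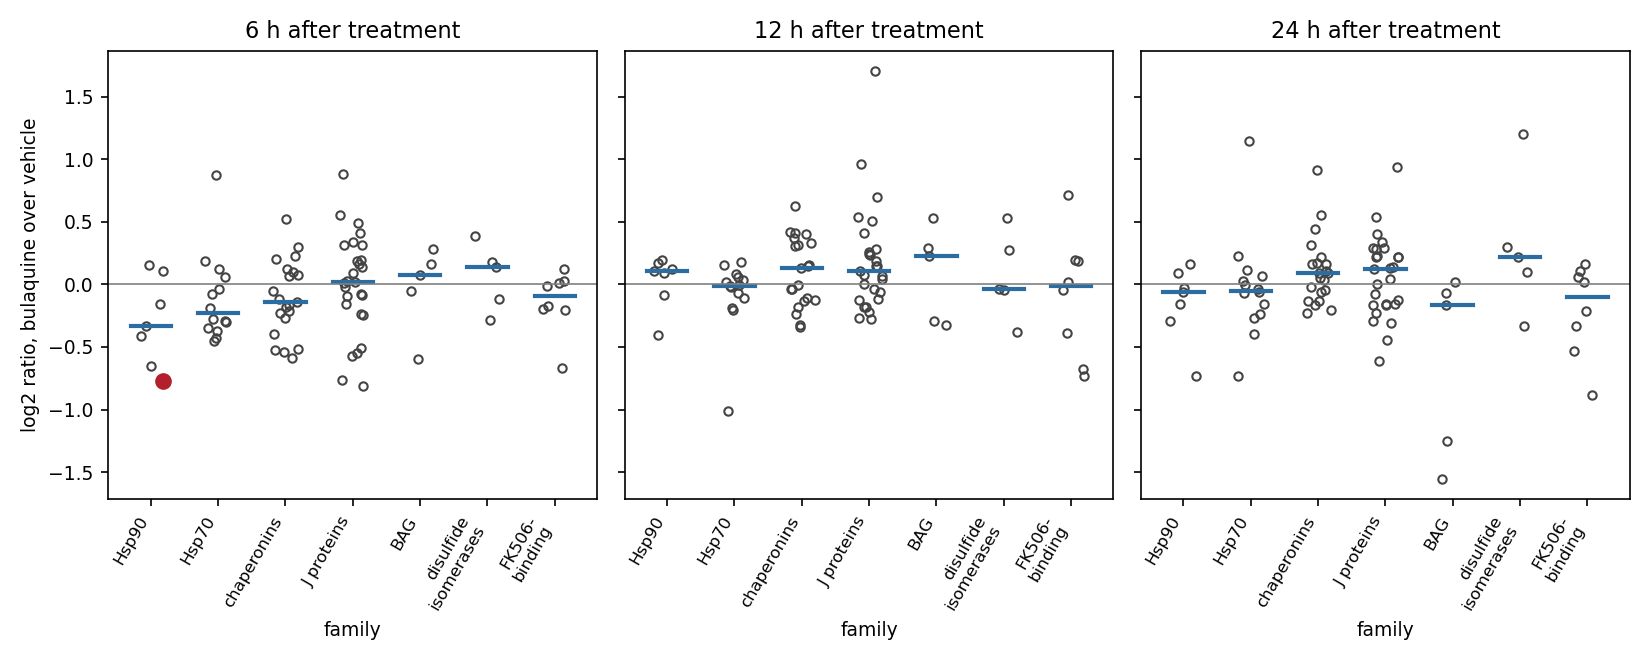
Each circle is a member spot, placed by its log2 ratio of bulaquine over vehicle (vertical axis) within its protein family (horizontal axis), with a panel for each time point. Blue bars are family medians, and the filled red circle is Hsp90aa1 spot 11546, the only member past the adjusted threshold, at -0.77 at 6 h.

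Hsp90 is the chaperone of kinases and steroid receptors. Hsp90aa1, its heat-inducible cytosolic form on chromosome 12, had 5 tested probes, and 1 of them fell at 6 h. On spot 11546 the background-corrected intensity before normalization was 8176, 4470.4, 4859 and 4938 in the bulaquine samples of 6 h, against 9205, 7539, 14810.0 and 5904 in the vehicle samples hybridised to the same arrays. The bulaquine sample was the dimmer on each of the 4 arrays, but before normalization the dyes are not on a common scale. After normalization and with the probe's dye effect taken out, the log2 ratios were -0.73, -0.73, -0.99 and -0.63. With the dye effect left in they were more spread, as given below with the dye bias. With it taken out all 4 arrays were low, within a narrow range, and the fitted log2 ratio was -0.77 (SE 0.10, n = 4 arrays, limma, adjusted p = 0.0279), a level 1.71-fold lower in bulaquine livers than in vehicle livers. The call did not hold under 7 of 12 other ways of processing (log2 ratios of -0.78 to -0.65, limma, adjusted p of 0.0619 to 0.9999 under those 7), nor when any array except F1 of 24 h was left out (adjusted p of 0.0513 to 0.181).

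At the later times the same probe lay near 0. At 12 h the array values were -0.11, -0.06, 0.03 and -0.20, with a fitted log2 ratio of -0.09 (SE 0.10, limma, adjusted p = 0.848). At 24 h they were -0.26, 0.12, 0.01 and 0.01, with a fitted value of -0.03 (adjusted p = 0.949). No array of 12 h or 24 h reached the range of the 6 h arrays. The test of the difference itself did not pass: the log2 ratio was 0.69 higher at 12 h than at 6 h (SE 0.14, limma, adjusted p = 0.137) and 0.74 higher at 24 h than at 6 h (SE 0.14, adjusted p = 0.116).

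The other Hsp90aa1 probes did not pass at 6 h, and 1 of them lay on the other side of 0. Spot 5084 read -1.27, -0.57, -0.64 and -0.12 on the 6 h arrays, for a log2 ratio of -0.65 (SE 0.18, limma, adjusted p = 0.441). Its arrays were all below 0 but spread widely, and without F1 the value was -0.42. Spot 13688 read -0.14, -0.72, -0.56 and -0.24, for -0.41 (SE 0.16, adjusted p = 0.693). Spot 17285, with a signal-to-noise score of 0.66 in bulaquine and 0.83 in vehicle samples, read -0.55, 0.41, -0.41 and -0.78, for -0.33 (SE 0.40, adjusted p = 0.957). Its arrays fell on both sides of 0.

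The brightest Hsp90aa1 probe, spot 14925, read 0.05, 0.26, 0.14 and -0.02 at 6 h, for a log2 ratio of 0.11 (SE 0.10, limma, adjusted p = 0.92). Its signal-to-noise score was 24.6 in bulaquine samples and 27.0 in vehicle samples, against 7.03 and 7.13 at spot 11546. No array of this probe reached the range of spot 11546, and the annotation gives spots 14925 and 5084 the same clone accession. With the 5 probes averaged on each array the gene stood at -0.41 (SE 0.10, limma, adjusted p = 0.41), which did not pass. Over the 5 probes the log2 ratios ran from -0.40 to 0.20 at 12 h and from -0.73 to -0.03 at 24 h. Probe sequences were not used here, so how far any probe also read transcripts of a near-identical relative or pseudogene was not tested.

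Cell type markers lay on both sides of 0 at 6 h. The 3 tested Kupffer cell and macrophage markers (of 11 listed) were at log2 ratios of -0.84 (Mpeg1), -0.67 (Csf1r) and -0.50 (Lyz2) at 6 h, none past the threshold. The 6 hepatocyte marker spots ran from -0.80 to 0.23, with 5 of 6 below 0. Endothelial marker spots ran from -0.07 to 0.50 and stellate cell marker spots from -0.67 to 0.10. The neutrophil markers S100a9 and Mpo were at 0.50 and -0.01, and the lymphocyte marker Cd3e was at -0.05. In a whole liver, fewer cells of a type and less RNA per cell cannot be told apart, and the part of these markers in the Hsp90aa1 value was not tested.

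The ER form of Hsp90, Hsp90b1 (Grp94), had 2 probes that straddled 0 at 6 h. Spot 22626 read -0.31, -0.21, 0.11 and -0.21 at 6 h, for -0.16 (SE 0.14), and spot 21666 read -0.12, 0.04, 0.50 and 0.20, for 0.15 (SE 0.20). The arrays of the pair overlapped. At 24 h the log2 ratios were 0.16 and 0.09 on these spots, neither past the threshold.

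**Figure D2:**
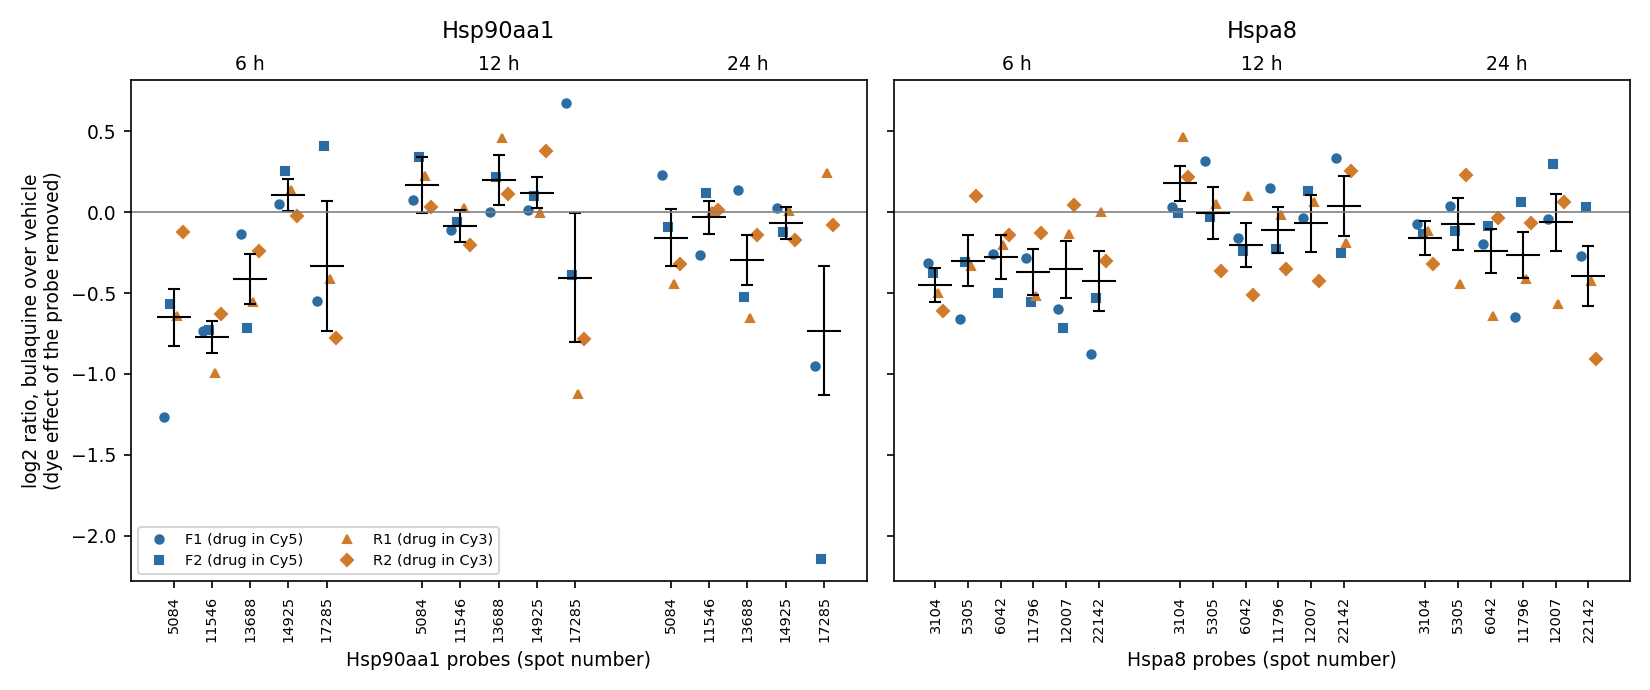
Points are single arrays and show the log2 ratio of bulaquine over vehicle with the probe's dye effect removed (vertical axis), for each Hsp90aa1 probe (left panel) and each Hspa8 probe (right panel) at 6 h, 12 h and 24 h. Horizontal bars are the fitted log2 ratios and error bars 1 SE. The 6 h arrays of Hsp90aa1 spot 11546 lie between -0.99 and -0.63, while all arrays of spot 14925 lie between -0.17 and 0.38.

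Among the Hsp70 proteins the constitutive cytosolic form Hspa8 (Hsc70) stood lowest as a gene at 6 h, with all of its 6 probes below 0 and none past the threshold. The probe of smallest p, spot 3104, read -0.31, -0.38, -0.50 and -0.61 on the 6 h arrays, for a log2 ratio of -0.45 (SE 0.11, limma, adjusted p = 0.328). All 4 arrays were low. The other 5 probes had log2 ratios from -0.43 to -0.28 at 6 h, with adjusted p of 0.7 to 0.808 in limma. With the 6 probes averaged the gene stood at -0.36 (SE 0.11, limma, adjusted p = 0.551), and the probe means on the 4 arrays were -0.50, -0.50, -0.28 and -0.17.

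The Hspa8 probes were bright, with signal-to-noise scores of 13.2 to 32.9 in bulaquine samples and 16.0 to 35.0 in vehicle samples. They are not 6 independent readings, since they share arrays and RNA and the annotation gives them 3 clone accessions. Their 12 array values correlated with each other at a median r of 0.30 (range -0.00 to 0.79 over 15 pairs), a description that the shared arrays bear on. At 12 h the 6 probes ran from -0.20 to 0.18, with 4 below 0. At 24 h they ran from -0.39 to -0.06, all below 0, and spot 6042 read -0.20, -0.08, -0.64 and -0.04 for a log2 ratio of -0.24 (SE 0.13, limma, adjusted p = 0.495). Without array R1 that value was -0.09.

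Dye bias was large for these probes. The dye effect, the log2 ratio of Cy5 over Cy3 common to all 12 arrays, ran from -1.39 to -0.83 over the Hspa8 probes and from -1.37 to 0.41 over the Hsp90aa1 probes, and was -0.69 at spot 11546. As measured, with the dye effect left in, spot 11546 read -1.43, -1.42, -0.30 and 0.06 at 6 h. The arrays with bulaquine in Cy5 were far below 0 and those with bulaquine in Cy3 near it, so the value rests on the swap. Among all 87 members the dye effect passed the threshold for 44, of which 36 were brighter in Cy3 and 8 in Cy5, against 3398 of all 11749 tested spots, 1582 brighter in Cy3 and 1816 in Cy5.

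**Figure D3:**
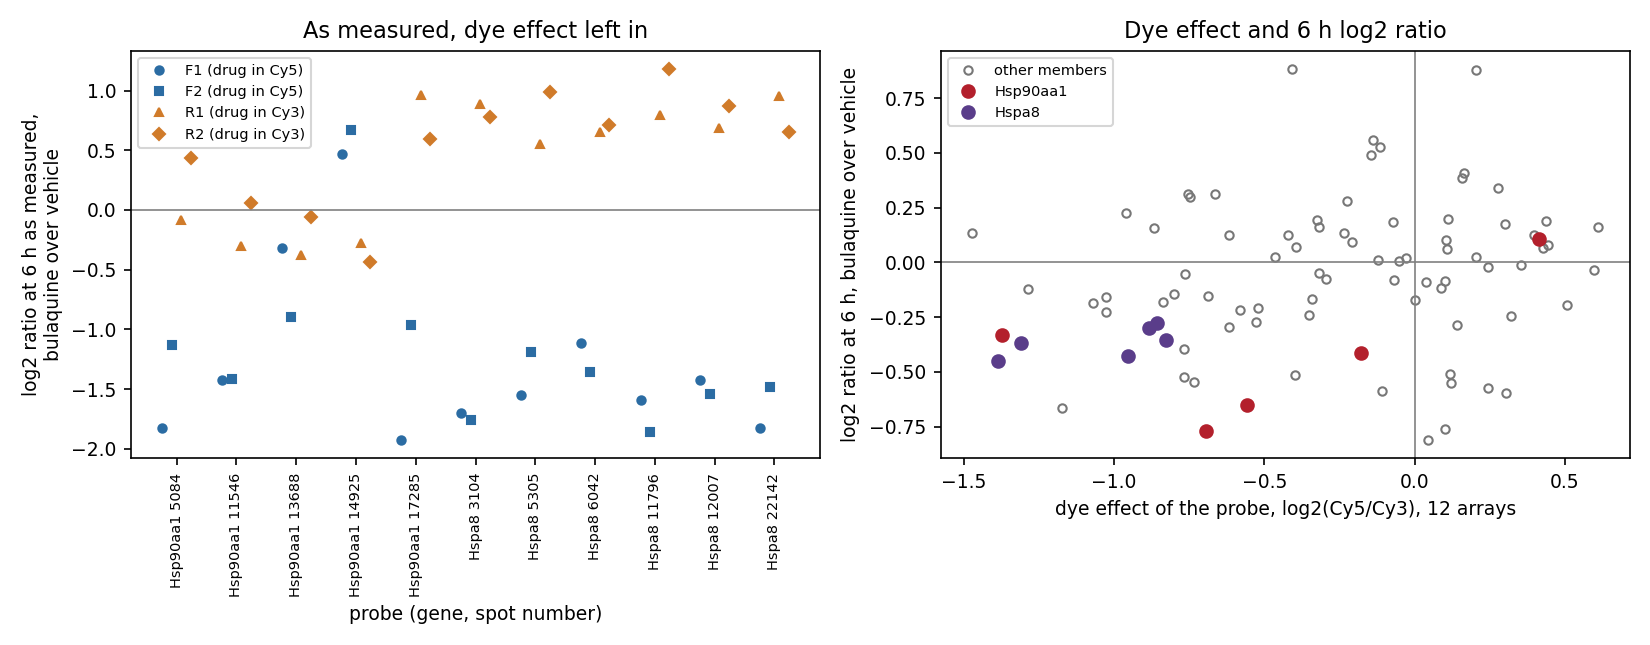
The left panel shows log2 ratios of bulaquine over vehicle at 6 h as measured on each array, with the dye effect left in, for the Hsp90aa1 and Hspa8 probes. The right panel sets each member's dye effect (horizontal axis, log2 of Cy5 over Cy3, 12 arrays) against its fitted 6 h log2 ratio (vertical axis). The Hspa8 probes have dye effects of -1.39 to -0.83 and 6 h log2 ratios of -0.45 to -0.28.

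The remaining Hsp70 proteins showed no change past the threshold. The ER Hsp70 Hspa5 (BiP), which sequesters the sensors of the unfolded protein response, had log2 ratios at 6 h of 0.06 (SE 0.22) on spot 13023 and -0.04 (SE 0.36) on spot 16109. On the brighter of those probes the 24 h arrays read 0.61, 0.33, -0.72 and 0.69. Mitochondrial Hspa9 (mortalin) had -0.19 (SE 0.19) and -0.08 (SE 0.14) at 6 h. None of these differed from 0 beyond its error.

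Hsph1, an Hsp110 protein that exchanges the nucleotide of Hsp70, read -0.83, -0.12, -0.11 and -0.12 at 6 h for a log2 ratio of -0.29 (SE 0.27, limma, adjusted p = 0.92), and was at -0.73 (SE 0.27, adjusted p = 0.301) at 24 h. Array F1 was the low one at 6 h. Its relatives Hspa4 and Hspa4l were at 0.12 (SE 0.25) and 0.18 (SE 0.15) at 6 h. Hspa12a, a distant Hsp70 relative with a signal-to-noise score of 1.08 in bulaquine and 0.75 in vehicle samples, read 1.03, 0.68, 1.29 and 0.51 at 6 h, all above 0, for 0.88 (SE 0.49, limma, adjusted p = 0.812). It then read -1.01 at 12 h and 1.14 at 24 h (SE 0.49 each), and had the largest absolute mean over the time points of the Hsp70 spots, 0.34.

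J proteins stimulate the ATPase of Hsp70 and bring it clients. Their 27 spots of 19 genes had a median log2 ratio of 0.02 at 6 h, with 12 below 0 and 15 above, of 0.10 at 12 h and of 0.12 at 24 h. Dnajb1 (Hsp40), the stress-inducible cytosolic partner of Hsp70, read -0.70, -0.81, -0.09 and -0.44 at 6 h, for -0.51 (SE 0.17, limma, adjusted p = 0.631). At 12 h it read 0.45, 0.58, 0.84 and 0.14, for 0.50 (SE 0.17, adjusted p = 0.487). The arrays of 12 h were all above those of 6 h, and the difference of 1.01 (SE 0.24) had an adjusted p of 0.226 in limma. Its signal-to-noise score was 0.96 in bulaquine samples and 1.04 in vehicle samples.

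Dnaja3 (Tid1), a J protein of mitochondria, stood on the higher side at 6 h on all of its 3 probes, to which the annotation gives the same clone. Spot 5802 read 0.33, 0.26, 0.51 and 0.53, for a log2 ratio of 0.41 (SE 0.11, limma, adjusted p = 0.441), and the dim spot 17922 read 1.53, 1.08, 0.16 and 0.76, for 0.88 (SE 0.33, adjusted p = 0.693). Both had all 4 arrays above 0. The brightest Dnaja3 probe, spot 4431, was at 0.09 (SE 0.12). At 24 h the 3 probes ran from -0.23 to 0.54.

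Cytosolic Dnaja2 had 3 probes that disagreed in sign at 6 h. Spots 18142 and 21322 were at 0.31 (SE 0.14, limma, adjusted p = 0.788) and 0.34 (SE 0.17, adjusted p = 0.802), above 0 on all 4 arrays, and spot 11527 was at -0.15 (SE 0.24). Spot 21322 read 0.03, 0.06, 0.28 and 0.98, and without array R2 its value was 0.10. At 24 h spot 21322 read -0.21, -0.61, -0.59 and -0.38, for -0.45 (SE 0.17, adjusted p = 0.323). All arrays of that probe were below 0 at 24 h and above 0 at 6 h, and the difference of -0.78 had an adjusted p of 0.366 in limma.

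The ER J protein Dnajc3 (p58IPK), which inhibits the kinase PERK and serves BiP, had log2 ratios of 0.56, 0.19 and 0.16 on its 3 probes at 6 h, and Dnajb11 (ERdj3) stood at 0.49 (SE 0.46). Neither gene had a probe past the threshold. Dnajb13, a bright testis-type relative of Dnajb1, read -0.54, -0.37, -0.13 and -0.20 at 24 h, for -0.31 (SE 0.12, limma, adjusted p = 0.332). Dnajc8 and Dnajc30 lay above 0 on all 4 arrays at 24 h, at 0.34 (SE 0.43) and 0.94 (SE 0.44), both with signal-to-noise scores under 1. Without array F2 of 24 h Dnajc30 was at 0.50, and without R1 Dnajc8 was at 0.17. Dnajc9, a histone co-chaperone and the dimmest of the members named here, had the largest absolute mean of the J protein spots, 0.67, through an array value of 5.11 on R2 at 12 h.

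BAG proteins release the client of Hsp70, and Bag3 is the stress-inducible member that steers clients to autophagy. Its bright spot 19229 read 0.25, 0.05, -0.10 and 0.12 at 6 h for a log2 ratio of 0.08 (SE 0.10), and 0.37, 0.03, 0.19 and 0.30 at 12 h for 0.22 (SE 0.10, limma, adjusted p = 0.585). The dim Bag3 spot 7286 lay on the other side of 0 at both times, at -0.05 and -0.29 (SE 0.39 each). Bag6, which guards membrane proteins on their way to the ER, read -0.75, -1.46, -0.67 and -3.34 at 24 h, for -1.55 (SE 0.41, limma, adjusted p = 0.171). All 4 arrays were low, and R2 was far below the others, without which the value was -0.89. Bag6 was dim, with a signal-to-noise score of 0.72 in bulaquine and 1.21 in vehicle samples.

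Bag4, another dim probe, was at -1.25 (SE 0.65, limma, adjusted p = 0.458) at 24 h. Its arrays read -0.60, -0.09, -4.25 and -0.08, so the mean rests on array R1, and it was -0.13 when that array of 24 h was left out. Bag1 was at 0.28 (SE 0.24) at 6 h and 0.02 at 24 h.

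Chaperonins enclose their client in a ring. The mitochondrial ring protein Hspd1 (Hsp60) read -0.42, -0.28, -0.55 and -0.34 at 6 h, for a log2 ratio of -0.40 (SE 0.21, limma, adjusted p = 0.808), and was at -0.04 at both later times. All 4 arrays were low at 6 h. The 2 spots annotated to its pseudogene Hspd1-ps3 were at -0.22 and 0.23 at 6 h, and spot 4363 read 0.12, 0.38, 0.55 and 0.43 at 12 h, for 0.37 (SE 0.15, limma, adjusted p = 0.563). Whether these spots read the pseudogene or Hspd1 cannot be told from the symbol.

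The cytosolic Cct ring is built of related subunits, and 18 spots of 7 Cct genes were tested. Their median log2 ratio was -0.13 at 6 h, with 11 below 0 and 7 above, 0.14 at 12 h and 0.10 at 24 h, and 0 of the 18 passed at any time in limma. At an unadjusted p under 0.05, 2 were lower and 1 higher at 6 h, where 3.24% and 3.12% of all tested spots were. By the same measure 0 were lower and 2 higher at 12 h, where 3.84% and 4.76% of all tested spots were, and 0 lower and 3 higher at 24 h, where 7.13% and 5.93% were.

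Cct3 had 7 probes, more than any other member, and they disagreed at 6 h, from -0.59 to 0.30. The annotation gives all 7 the same clone. Spot 4352 read -0.12, -0.93, -0.25 and -0.76 at 6 h, for -0.52 (SE 0.19, limma, adjusted p = 0.692). Spot 2432 read 0.16, 0.58, 0.63 and 1.14 at 12 h, for 0.63 (SE 0.17, adjusted p = 0.312), and 0.25, 0.71, 0.43 and 0.38 at 24 h, for 0.44 (SE 0.17, adjusted p = 0.311). All 4 arrays were above 0 at both times on that spot. The brightest Cct3 probe, spot 14264, was at -0.12, -0.11 and -0.17 at 6 h, 12 h and 24 h (SE 0.10 each), on the other side of 0 from spot 2432 at the later times.

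Cct6a read 0.28, 0.46, 0.28 and 0.30 at 12 h, for a log2 ratio of 0.33 (SE 0.09, limma, adjusted p = 0.327), and was at 0.07 at 6 h and 0.11 at 24 h. At 24 h Cct2 read 0.86, 0.61, 0.68 and 1.49, for 0.91 (SE 0.30, limma, adjusted p = 0.259), and Cct4 spot 568 read 0.60, 0.44, 0.56 and 0.63, for 0.56 (SE 0.20, adjusted p = 0.283). These spots were above 0 on all 4 arrays. The 2 other Cct4 probes were at 0.09 and 0.04 at 24 h and at 0.53 and -0.53 at 6 h. Cct8 had the largest absolute mean of the chaperonin spots, -0.29, with -0.54 (SE 0.28) at 6 h.

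Protein disulfide isomerases form and reshuffle disulfide bonds of proteins in the ER. Pdia3 (ERp57), the partner of calnexin and calreticulin, read -0.43, -0.27, -0.23 and -0.21 at 6 h, for -0.29 (SE 0.10, limma, adjusted p = 0.692). At 12 h it read -0.62, -0.28, -0.41 and -0.23, for -0.38 (SE 0.10, adjusted p = 0.318), and at 24 h it was at 0.10. It was below 0 on all 8 arrays of 6 h and 12 h, and the only member below 0 on all 4 arrays of 12 h.

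Pdia5 lay on the other side. Spot 6906 read 0.59, 0.28, 0.56 and 0.10 at 6 h, for a log2 ratio of 0.38 (SE 0.14, limma, adjusted p = 0.693), and 0.52, 0.41, 0.75 and 0.43 at 12 h, for 0.53 (SE 0.14, adjusted p = 0.313). At 24 h it read -0.27, -0.37, -0.75 and 0.07, for -0.33, while the other Pdia5 probe, spot 7855, read 1.25, 1.47, 0.22 and 1.87, for 1.20 (SE 0.42, adjusted p = 0.277). The 2 probes of the gene were apart at 24 h with no overlap of arrays, though the annotation gives them the same clone. Pdia6 had log2 ratios of -0.12 and 0.14 on its 2 probes at 6 h and 0.30 and 0.22 at 24 h.

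The ER members as a set (Hsp90b1, Hspa5, Dnajb11, Dnajc3, Dnajc10, Pdia3, Pdia5, Pdia6 and Fkbp9) had 16 spots. Their median log2 ratio was 0.10 at 6 h, 0.08 at 12 h and 0.15 at 24 h, with 10, 11 and 12 spots above 0. Below 0 lay 37.5%, 31.25% and 25% of them, against 50.1%, 52.2% and 49.1% of all tested spots. None passed in limma, where 0.102%, 0.46% and 0.477% of all tested spots did. At an unadjusted p under 0.05 there was 1 lower and 1 higher spot at each time. Of all tested spots, 3.24% were lower and 3.12% higher at 6 h, 3.84% and 4.76% at 12 h, and 7.13% and 5.93% at 24 h.

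FK506-binding proteins are peptidyl-prolyl isomerases, and Fkbp4 (FKBP52) rides on Hsp90 in steroid receptor complexes. Its 3 probes were at -0.67 (SE 0.31), -0.17 (SE 0.10) and -0.01 (SE 0.24) at 6 h. The first of these, the dim spot 11673, read -0.83, -0.78, -0.88 and -0.17 and had the largest absolute mean of its family over the time points, -0.64. Fkbp9, an ER isomerase, read -0.32, -0.25, -0.16 and -0.13 at 24 h on spot 6016, for -0.22 (SE 0.10, limma, adjusted p = 0.405), while its other probe was at 0.16. Fkbp8 and the probes of Fkbp1a ran from -0.21 to 0.12 at 6 h.

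By family, the medians at 6 h were -0.33 for the 7 Hsp90 spots, -0.23 for the 14 Hsp70 spots, -0.14 for the 21 chaperonin spots and -0.09 for the 8 FK506-binding protein spots. They were 0.02 for the 27 J protein spots, 0.08 for the 5 BAG spots and 0.14 for the 5 disulfide isomerase spots. The plot of members by family shows that the ranges of all 7 families overlapped at 6 h.

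Differences between time points were tested directly. Between 12 h and 6 h 0 members passed in limma, where 0.4% of all tested spots did, and 14 members had an unadjusted p under 0.05, which is 16.1% of them against 6.57% of all tested spots. Those with the smallest p were Hsp90aa1 spot 11546, Dnajb1 spot 1019 and Hspa8 spot 3104, whose log2 ratios were 0.69, 1.01 and 0.63 higher at 12 h. The 12 h against 6 h comparison and the 6 h comparison share the 6 h arrays, so a low value at 6 h enters both. Of the 14 members, 11 were higher and 3 lower at 12 h, against 451 and 321 of all 11749 tested spots. Among the 76 members other than Hsp90aa1 and Hspa8, 7 were higher and 3 lower. The members were chosen with earlier results known, so these shares are descriptions and not tests.

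Between 24 h and 12 h 0 members passed, where 0.179% of all tested spots did, and 11 had an unadjusted p under 0.05 (8.92% of all tested spots did). Pdia5 spot 6906 had the smallest p of these, with a log2 ratio 0.86 lower at 24 h (limma, adjusted p = 0.172). Between 24 h and 6 h 0 members passed, where 0.187% of all tested spots did, and 9 had an unadjusted p under 0.05 (9.62% of all tested spots did). For the mean over the 3 time points 0 members passed, where 0.332% of all tested spots did, and 14 had an unadjusted p under 0.05 (11.7% of all tested spots did). Hsp90aa1 spot 11546 had the smallest p there too, with a mean log2 ratio of -0.30 (limma, adjusted p = 0.0927).

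The member spots whose 12 array values most resembled those of Hsp90aa1 spot 11546 were Cct3 spot 2432 (Pearson r = 0.74), Hspa8 spot 3104 (0.67), Cct3 spot 4352 (0.67), Dnajc17 spot 4524 (0.64) and Hsp90aa1 spot 5084 (0.63). These correlations are descriptions over 12 arrays, and the spots share the RNA and the normalization of each array. The 3 other Hsp90aa1 probes were not among the 5, with r of 0.38 (spot 13688), -0.21 (spot 17285) and -0.42 (spot 14925). Spot 11546 was taken for its small p at 6 h, so likeness to it partly reflects low values at 6 h.

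Probes of the same gene often lay on different sides of 0. Many of these probes are not different clones by the annotation. It gives the 7 Cct3 probes 1 clone, and the probes of Cct4, Dnaja2, Dnaja3 and Pdia5 also 1 clone per gene, but the 3 Cct7 probes 3 clones. Signal-to-noise scores in vehicle samples ran from 1.22 to 36.1 over the Cct3 probes and from 0.63 to 32.4 over the Dnaja3 probes. They ran from 1.74 to 2.35 for Cct4, 2.05 to 2.83 for Dnaja2 and 1.97 to 3.37 for Pdia5. Whether spots of 1 clone accession carry the same DNA was not tested. Of 21 member genes with more than 1 tested probe, 7 had all probes on 1 side of 0 at 6 h, 8 at 12 h and 7 at 24 h. The median distance between a gene's lowest and highest probe was 0.27 at 6 h, 0.35 at 12 h and 0.37 at 24 h on the log2 scale. The median SE of a member at 6 h was 0.22. A distance over several probes and the SE of 1 probe are unlike measures, so their sizes do not tell how well probes agree. Among the 9 genes with at least 3 probes, the distance at 6 h ran from 0.13 (Cct7) to 1.05 (Cct4). Hspa8 and the 3 probes each of Dnaja3, Dnajc3, Cct7 and Fkbp4 kept 1 sign at 6 h, together with the pairs of Hspa9 and Pdia5.

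**Figure D4:**
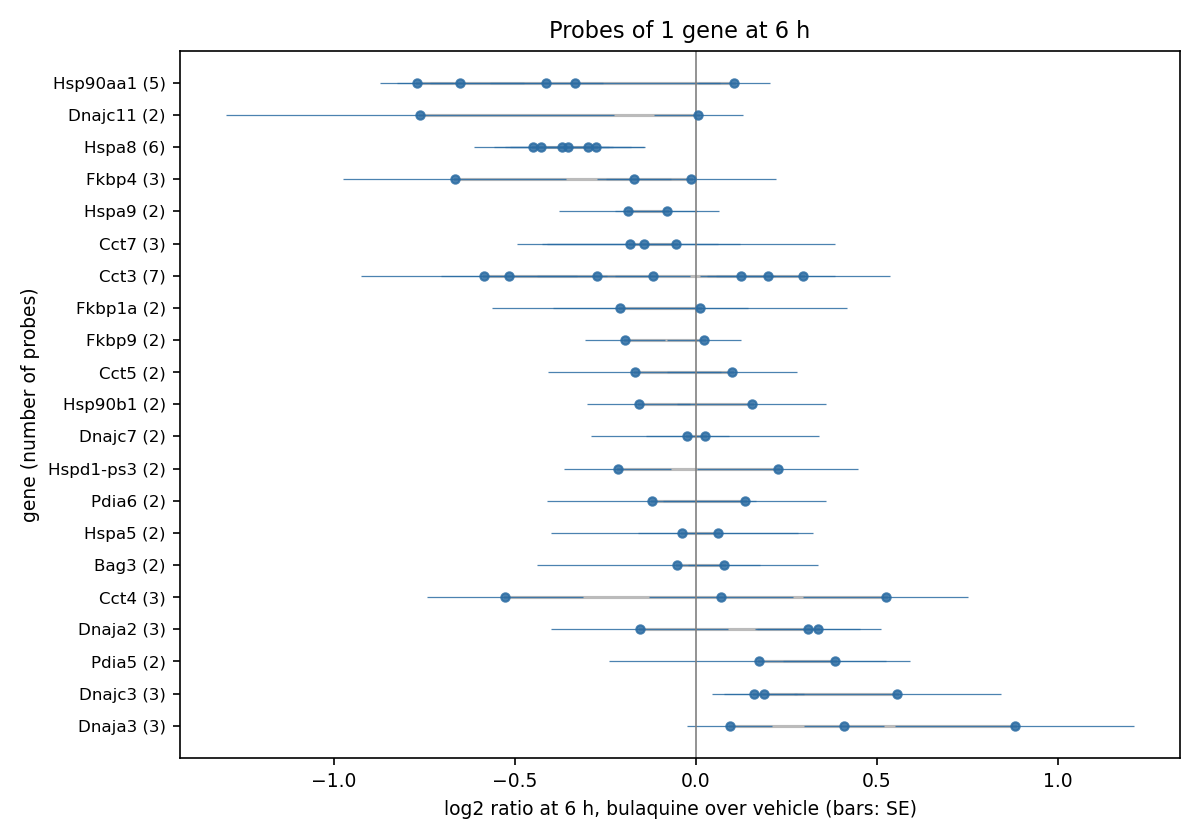
Each row is a gene with more than 1 tested probe, with the number of probes in brackets, and each point is a probe's log2 ratio of bulaquine over vehicle at 6 h with its SE as a horizontal bar. Grey lines join the lowest and highest probe. The 6 Hspa8 probes lie close together between -0.45 and -0.28, while the 7 Cct3 probes run from -0.59 to 0.30.

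Promoter windows of RefSeq (assembly GRCm38.p6, 250 bases before to 50 after each start, 300 bases) were searched for the heat shock element, the site of heat shock factor 1. The motif was 3 adjoining units, GAANNTTCNNGAA or TTCNNGAANNTTC, which are each other's reverse complement, so both strands were covered. Windows were found for 39 of the 48 member genes, 50 windows in all, and none for Bag4, Cct4, Dnajc11, Dnajc2, Dnajc30, Hsp90aa1, Hspa8, Hspa9 and Hspd1-ps3. The motif stood in 5 of those 50 windows (10%), those of Hspd1, Hsph1 and Dnajb6, and in 198 of 32851 windows of all genes (0.603%). A shorter form of 2 units (GAANNTTC or TTCNNGAA), which every longer match contains, stood in 12 member windows (24%) of 10 genes, and in 15.1% of all windows.
The 3 genes with the full motif are shown by 1 window each, 5' to 3' on the gene's strand, with the matched bases in capitals, because they carry the letters of the classical response element. Their 6 h log2 ratios were 0.31 (Dnajb6, SE 0.47), -0.40 (Hspd1, SE 0.21) and -0.29 (Hsph1, SE 0.27). Their windows lie at chr5:29735648-29735947 (plus strand), chr1:55087883-55088182 (minus strand) and chr5:149636287-149636586 (minus strand).
Dnajb6: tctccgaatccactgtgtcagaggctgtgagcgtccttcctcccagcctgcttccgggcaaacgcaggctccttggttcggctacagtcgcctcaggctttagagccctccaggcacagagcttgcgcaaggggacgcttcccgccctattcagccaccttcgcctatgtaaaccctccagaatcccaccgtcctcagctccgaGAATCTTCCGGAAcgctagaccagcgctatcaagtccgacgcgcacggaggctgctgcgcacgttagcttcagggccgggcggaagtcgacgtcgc
Hspd1: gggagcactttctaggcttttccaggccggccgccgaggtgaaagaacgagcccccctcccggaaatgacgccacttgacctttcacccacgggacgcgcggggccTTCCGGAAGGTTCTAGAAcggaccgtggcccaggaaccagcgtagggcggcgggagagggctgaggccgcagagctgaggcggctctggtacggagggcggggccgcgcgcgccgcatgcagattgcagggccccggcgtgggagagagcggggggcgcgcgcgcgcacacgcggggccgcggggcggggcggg
Hsph1: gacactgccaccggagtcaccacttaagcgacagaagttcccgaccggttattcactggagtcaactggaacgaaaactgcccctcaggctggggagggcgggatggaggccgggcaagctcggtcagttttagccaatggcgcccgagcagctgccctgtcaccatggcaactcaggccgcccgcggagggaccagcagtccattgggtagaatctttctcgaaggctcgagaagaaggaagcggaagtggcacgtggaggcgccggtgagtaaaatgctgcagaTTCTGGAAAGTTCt

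In Hspd1 overlapping matches covered 18 bases, from 144 to 127 bases before the start. The Dnajb6 match lay 46 to 34 bases before its start. The Hsph1 match lay after the start. The 14 tested spots of the 10 genes with at least 2 units had a median log2 ratio of -0.11 at 6 h, with 9 below 0, and the 50 spots of the 29 genes with a window and no such match had 0.03, with 23 below 0. A match is a run of letters and not a measured binding site.

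Related genes outside the members gave 0 calls at any time in limma, where 0.102%, 0.46% and 0.477% of all tested spots passed at 6 h, 12 h and 24 h. Of 28 spots for 18 cytosolic co-chaperones and stress regulators, 3 were lower and 1 higher at 6 h at an unadjusted p under 0.05, with a median log2 ratio of 0.01. By the same measure 3.24% of all tested spots were lower and 3.12% higher. The 3 lower spots were those of Stip1 (Hop, which links Hsp70 to Hsp90) at -1.67 on spot 509, of Ahsa1 (an activator of the Hsp90 ATPase) at -0.97, and of Chordc1 at -0.80 on spot 17957. The higher spot was that of Tomm70a, a mitochondrial import receptor that docks Hsp70 and Hsp90, at 0.30 on spot 7708. Adjusted p of these 4 ran from 0.574 to 0.781 in limma. Other probes of the same genes were at -0.24 (Stip1), 0.07 (Chordc1) and -0.04 (Tomm70a).

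Of 23 spots for 14 genes of ER folding and the unfolded protein response, 0 were lower and 1 higher at 6 h at an unadjusted p under 0.05. Of all tested spots 3.24% and 3.12% were. The higher spot was that of Derl1, a channel component of ER-associated degradation, at 1.03 (limma, adjusted p = 0.132). The median of that list was -0.00 at 6 h, 0.04 at 12 h and 0.16 at 24 h. Mitochondrial chaperones and proteases (13 spots) had medians of 0.01, 0.15 and 0.06, and cyclophilins with Pin4 (11 spots) 0.07, -0.00 and 0.06. Among these lists the smallest adjusted p at 24 h was that of Trap1, the mitochondrial Hsp90, at -0.33 on spot 6653 (limma, adjusted p = 0.151), while its other probe, spot 2946, was at 0.23.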

How the data were processed

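Each array compared a bulaquine and a vehicle liver RNA in different dyes. Scanning with ImageQuant and spot extraction with ArrayVision are stated in the series' design text. Per the file headers, the intensity columns hold foreground, background and background-corrected values for each dye, and testing the values showed the corrected column to equal foreground minus background within 0.001, with 0 where that was negative. The deposited signal-to-noise score has no formula in the sources used here. The authors' deposited log2 ratio table, made with LOWESS in Avadis per the design text, correlated with ratios recomputed here at r of 0.998 to 1.000 on each array. It holds log2(Cy5/Cy3) with dye-swapped arrays unturned, its column medians are -0.01 to 0.04, and it served as an alternative.

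Corrected intensities of 0 were set to missing, and a global loess curve was removed from log2(Cy5/Cy3) on every array. A linear model in limma 3.58.1 (R 4.3.3) was fitted to the 11749 spots measured on all 12 arrays, using 1 coefficient per time point coded by dye orientation and a dye effect per spot (8 residual degrees of freedom, 9.78 after moderation), and p-values were adjusted by Benjamini-Hochberg over all of them. Array values are normalized log2 ratios turned to bulaquine over vehicle, less the fitted dye effect, which is estimated from all 12 arrays. Counting array signs on these values was settled after the data were seen. The number of arrays limits the precision.

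The deposited spot numbers do not pair with the annotation by number. Spots were paired by moving the 48 blocks of 480 spots between row-wise and column-wise order of a 12 by 4 grid, in the direction that places Mt1 at spot 12998 and Mt2 at spot 9645. This order is inferred, and every gene name rests on it. Among tested spots 7829 had 1 symbol. The members, the marker lists and the related gene lists were chosen with earlier results of these data known. Named spots were every Hsp90aa1 probe, every member that passed, the 6 of smallest p in each direction at each time among members of 1 sign on 4 arrays, the spot of largest absolute mean in each family, and genes with several probes. Other spots named in the text were chosen after their values were seen. Alternatives changed the background correction, normalization, spot filter, dye term, replicate block, weights and probe averaging, and left out each array in turn.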

Additional observations from a re-analysis of the deposited data

Results flagged for a closer look

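In 2 of the 47 groups of 4 array values behind the named spots, 1 array lay farther from the rest than Dixon's 95% limit allows. Chance gives about 5% of unselected groups, but many of these spots were named for having 1 sign on 4 arrays and a small p. That rate need not hold for them. Cct6a spot 11355 read 0.46 on array F2 of 12 h, and the other 3 arrays lay between 0.28 and 0.30. Bag4 spot 1117 read -4.25 on array R1 of 24 h, and the other 3 lay between -0.60 and -0.08.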

How the results depend on the processing

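The single call among the members depended on the processing. Members passing at 6 h, and at any time point, numbered 1 as reported and 0 with normexp background (offset 50), median centring, spots on at least 3 of 4 arrays of each time point, no dye effect, the replicate block, dye-swap pairs averaged and probes of 1 gene averaged. At 6 h the count was also 0 with each time point alone, and with 1 array left out it ran from 0 to 1 in both tests. For Hsp90aa1 spot 11546 at 6 h the log2 ratio was -0.65 with normexp (limma, adjusted p = 0.203), -0.78 with median centring (0.0619) and -0.77 with the wider spot filter (0.0806), no dye effect (0.9999), the replicate block (0.163), pairs averaged (0.566) and each time alone (0.598). Leaving out 1 array gave -0.82 to -0.69. It passed under 5 of 12 alternatives on all arrays, with adjusted p down to 0.00357, and in 1 of the 12 fits that left out an array (without F1 of 24 h, adjusted p = 0.0324).

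In the other direction, 1 member passed without background correction for 12 h against 6 h and for the mean over times, and 1 passed without the dimmest 30% of spots for 24 h against 6 h and for the mean over times. Totals over all spots for these comparisons under these settings are not given here. At 6 h, 12 h and 24 h, 34, 81 and 193 of 11749 spots passed without background correction. Without the dimmest spots 26, 67 and 148 of 8224 passed, against 12, 54 and 56 of 11749 in the main fit. The members' median at 12 h was 0.0273 with the wider spot filter, 0.0197 with probes averaged and 0.0320 to 0.115 with 1 array left out. That at 6 h was -0.0182 without the dimmest spots, -0.0340 with median centring and -0.0988 to -0.0441 with 1 array left out. That at 24 h was -0.0101 with normexp and -0.0435 to 0.0530 with 1 array left out. Of 700 recomputed values of 29 single spots, 1 turned: Dnaja2 spot 18142 at 6 h, -0.0279 with normexp against 0.31. The causes were not tested. Over all tested spots, 12 passed at 6 h, 34 without background correction, 26 without the dimmest spots, 2 with the replicate block and 0 with pairs averaged or each time alone.

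The check of pairing was not informative. Between time points, deviations of arrays with the same replicate label correlated at a median of -0.15 (12 pairs), those of arrays with another label and the same dye orientation at -0.13 (12 pairs), and those of opposite orientation at 0.14 (24 pairs), so the sign went with dye orientation, which the dye term fixes. The labels are not taken to pair arrays. Low signal over background limits the dim spots, such as Bag6, Dnajc9 and Hsp90aa1 spot 17285.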

Other observations

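Members outside the rule for named spots included some with large values and large errors, chosen here after their values were seen. Dnajc17, a J protein linked to splicing, had the lowest fitted log2 ratio of all 87 members at 6 h, -0.81 (SE 0.48), with array values of -0.38, -1.05, -1.80 and -0.01. The brighter Fkbp1a probe (FKBP12, the target of the drug FK506), spot 14584, was at -0.67 at 12 h, with array values of 0.07, -2.67, -0.21 and 0.12, while spot 1717 was at 0.71, with 0.95, 0.77, 0.54 and 0.59. Dnajc11 spot 4844 and Dnajc17 were at 0.96 and 0.70 at 12 h. On array F2 of 12 h, the array with the most spots at 0, these read 2.96 and 2.62, and on its other 3 arrays Dnajc11 lay between 0.21 and 0.43 and Dnajc17 between -0.26 and 0.57. None of these values passed in limma.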
